A study of Homo sapiens with 8 samples.

Results

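The ID genes encode 4 small helix-loop-helix proteins, ID1, ID2, ID3 and ID4, and the 4 rows of the gene count table whose Ensembl identifiers carry these symbols in GENCODE release 29 were taken, out of 58735 rows. All 4 passed the filter on low counts, among 15647 genes that did. The counts come from SRA01/04 cells, a human lens epithelial line immortalised with a viral large T antigen, in 8 bulk RNA-seq libraries. In 4 libraries the cells carried a control hairpin (shControl, genotype WT in the labels), and in 4 a hairpin against SMURF1 (shSmurf1, Smurf1 knockdown). The cells of all 8 libraries were treated with 20 ng/ml TGF-β2 over 48 h, so the ID genes were seen only under TGF-β2. The labels name 1 cell line, no other SMURF1 hairpin and no rescue, so an effect of SMURF1 loss and other differences between the lines cannot be told apart. In bulk RNA, fewer expressing cells and less RNA per cell cannot be told apart either.

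ID proteins have a helix-loop-helix for dimerisation but lack the basic region that contacts DNA. They pair with E proteins, the widely expressed basic helix-loop-helix factors TCF3, TCF4 and TCF12, and keep them off their E-box sites. Their genes, ID1 and ID3 above all, are classical direct targets of BMP signalling through SMAD1 and SMAD5, and TGF-β is known to act on them in a way that depends on the cell. SMURF1 is a HECT-type ubiquitin ligase first described as acting on SMAD1 and SMAD5, and its relative SMURF2 has been reported to act on ID proteins.

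The stretches before the transcription starts are shown because the members moved in different directions. They are from RefSeq on GRCh38.p14, where all 4 genes were matched, and are written along the gene's strand. Capitals mark the letters TATAA and CCAAT on either strand, and these overlap only where both strands of ID1 hold TATAA. For ID1 the stretch ends before the first exon base in GENCODE, and for ID4 before the RefSeq start. For ID2 and ID3 most or all of the 250 bases lie within exons of GENCODE transcripts that start further upstream, so 30 bases are given, from base 45 to base 16 before the RefSeq start.
ID1, chr20:31605039-31605282, plus strand: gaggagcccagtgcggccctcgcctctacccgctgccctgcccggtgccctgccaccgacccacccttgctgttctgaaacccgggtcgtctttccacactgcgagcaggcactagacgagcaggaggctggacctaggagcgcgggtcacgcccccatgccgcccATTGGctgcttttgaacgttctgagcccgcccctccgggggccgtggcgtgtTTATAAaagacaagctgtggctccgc
ID2, chr2:8682011-8682040, plus strand: ccccggcgagtgcggataaaagccgccccg
ID3, chr1:23559517-23559546, minus strand: ccttccaggcaggctcTATAAgtgaccgcc
ID4, chr6:19837120-19837369, plus strand: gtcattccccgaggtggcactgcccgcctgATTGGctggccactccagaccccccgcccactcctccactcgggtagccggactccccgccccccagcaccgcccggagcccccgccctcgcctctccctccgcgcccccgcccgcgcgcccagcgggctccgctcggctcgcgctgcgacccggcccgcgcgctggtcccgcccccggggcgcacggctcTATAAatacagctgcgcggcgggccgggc

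In the 250 bases before the start, TATAA was found in ID1, ID3 and ID4, beginning at base 29 before the start in both ID3 and ID4 and at bases 32 (minus strand) and 31 (plus strand) in ID1, and not in ID2. Among 35114 RefSeq promoters of that length, the share with TATAA was 18.9%. The letters CCAAT, found in 32.0% of promoters, occurred 1 time in ID1, 3 times in ID2 and 1 time in ID4. The GC-rich letters CCGCCC, found in 42.6% of promoters, occurred 2 times in ID1, 2 times in ID2 and 6 times in ID4. GTCTG, the core of the SMAD box, occurred 1 time each in ID3 and ID4, against 38.0% of promoters, and the letters of an E-box, CAGCTG, 1 time each in ID2 and ID4, against 14.0%. GGCGCC, a letter run bound by SMAD1 and SMAD5, was found in 0 of the 4 windows, against 16.4% of promoters. Such matches describe these letters in these windows only.

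The targeted gene was lower in every shSmurf1 library, with SMURF1 between 50.4 and 51.4 CPM (counts relative to library size after TMM scaling) against 85.8 to 93.3 CPM in shControl, and that fall checks the labels. The SMURF1 model overlaps TRRAP on the other strand, and without strand their reads there cannot be told apart. Library totals were 14688651 to 17030394 counts. Of 14 lens epithelial markers 7 were tested. GJA1 (log2 fold change −0.83), SIX3 (−0.37) and VIM (−0.31) were lower, MAB21L1 (0.79) was higher, and the lens regulator PAX6, at 33.3 ± 1.78 CPM in shControl and 34.0 ± 4.53 CPM in shSmurf1 (SD, n = 4 each), was not called. The summed level of the list was 2562 to 2604 CPM in shControl and 1982 to 2319 CPM in shSmurf1, without overlap. The markers FOXE3, CRYAB, CRYAA, MAF, PITX3, CDH1 and AQP1 did not reach the filter. Lens fibre markers were near 0, with 5 of 11 at 0 in every library and a summed level of 4.52 to 6.12 CPM in shControl and 3.94 to 5.57 CPM in shSmurf1. The summed level of 12 markers of other cell types was 5.67 to 7.04 CPM in shControl and 6.51 to 10.3 CPM in shSmurf1, with PTPRC, CD68, PECAM1, CDH5, RPE65, KRT5, KRT12 and DCN below the filter and KRT12 at 0. In that list LUM, lumican, rose from 0.282 to 2.16 CPM and TUBB3, a neuronal tubulin, from 1.78 to 3.53 CPM (edgeR adjusted p 1.12e-05 and 0.00665). The part of these marker shifts in the changes of the ID genes was not tested. On the second principal component, shSmurf1 replicate 3 lay at 14.9 and the other shSmurf1 libraries between −6.66 and −3.92, so each ID gene is also given without it.

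The ID family split under the SMURF1 hairpin. ID1, the most abundant member, rose, ID3 and ID4 fell, and ID2 did not pass the test. A call required edgeR's quasi-likelihood test, adjusted over all genes, to give p under 0.05, a rule that called 22.5% of genes tested, 10.3% as higher and 12.2% as lower. Of the 4 members, 1 rose and 2 fell, and in these 3 the libraries of the groups did not overlap, as in 23.7% of all genes tested. With so few members these counts were not set against the background by a test.

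**Figure D1:**
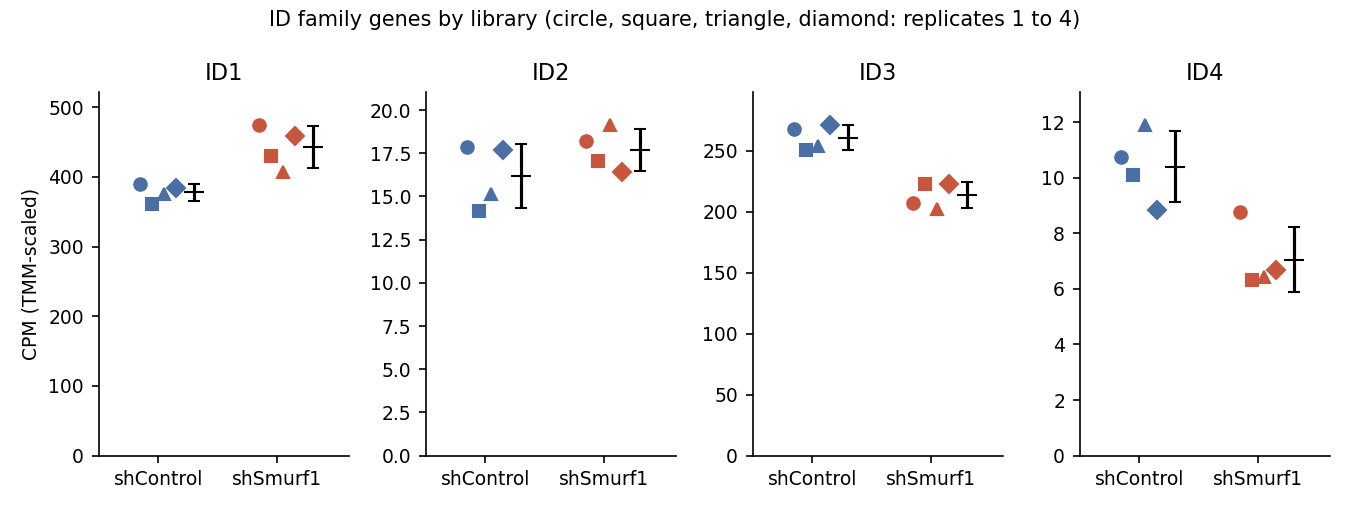
CPM (vertical axes, each starting at 0) of ID1, ID2, ID3 and ID4 in the 4 shControl and 4 shSmurf1 libraries, with mean and SD as black bars. The shSmurf1 libraries lie above all shControl libraries for ID1 and below all of them for ID3 and ID4, and the groups overlap for ID2.

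ID1 (ENSG00000125968, GRCh38 chromosome 20, 31605283 to 31606515, plus strand) measured 389.7, 361, 376 and 384 CPM in shControl replicates 1 to 4. In shSmurf1 replicates 1 to 4 it measured 474, 429.6, 407 and 459 CPM. The lowest shSmurf1 library, replicate 3, lay above the highest shControl library. The means were 378 ± 12.3 and 442 ± 30.2 CPM (SD, n = 4 each), 117% of control. On the log2 scale the change was 0.23 ± 0.052 (SE; edgeR adjusted p = 0.00309), and without shSmurf1 replicate 3 it was 0.27 ± 0.038. ID1 was the member with the deepest counts, 5364 to 7703 per library.

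ID3 (ENSG00000117318, GRCh38 chromosome 1, 23557918 to 23559794, minus strand) moved the other way. It measured 268, 251, 254 and 271 CPM in the shControl libraries, and 207, 222, 202 and 223 CPM in the shSmurf1 libraries. Every shSmurf1 value lay below every shControl value. The means were 261 ± 9.99 and 214 ± 10.5 CPM (SD, n = 4 each), or 81.9% of control, with a log2 fold change of −0.29 ± 0.050 (SE; edgeR adjusted p = 0.000295) and −0.26 ± 0.040 without shSmurf1 replicate 3.

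ID4 (ENSG00000172201, GRCh38 chromosome 6, 19837386 to 19840684, plus strand), the least abundant member, fell furthest. It measured 10.7, 10.1, 11.9 and 8.83 CPM in the shControl libraries, and 8.77, 6.32, 6.44 and 6.67 CPM in the shSmurf1 libraries. Replicate 1 was the highest of the shSmurf1 libraries and lay just under the lowest shControl library, so the groups were separated by a narrow gap. The means were 10.4 ± 1.28 and 7.05 ± 1.16 CPM (SD, n = 4 each), 67.9% of control, and the log2 fold change was −0.56 ± 0.14 (SE; edgeR adjusted p = 0.00519), and −0.52 ± 0.14 without shSmurf1 replicate 3. ID4 rested on 94 to 191 counts per library. Its spread between shSmurf1 libraries, 16.4% of the mean, compares with 9.52% from counting alone. A gene model on the other strand, AL022068.1, overlaps ID4, with 35 counts over all 8 libraries against 661 and 441 for ID4 in the groups, and without strand their reads cannot be told apart.

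ID2 (ENSG00000115738, GRCh38 chromosome 2, 8678845 to 8684453, plus strand) measured 17.8, 14.2, 15.1 and 17.7 CPM in shControl and 18.2, 17.1, 19.1 and 16.4 CPM in shSmurf1, and the groups overlapped. The means were 16.2 ± 1.84 and 17.7 ± 1.21 CPM (SD, n = 4 each). Its log2 fold change of 0.13 ± 0.098 (SE) did not pass (edgeR adjusted p = 0.404), and it was 0.09 ± 0.098 without shSmurf1 replicate 3. The 95% interval ran from −0.08 to 0.33, which takes in the change of ID1 but leaves out those of ID3 and ID4. ID2-AS1, on the other strand, overlaps ID2 and held 117 counts over all libraries, against 1032 and 1104 for ID2 in the groups.

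Compared per kilobase of merged exon length, the levels of the 4 genes had the same order in both groups: ID1, ID3, ID2, ID4. In shControl they were 306 ± 9.99, 145 ± 5.56, 7.35 ± 0.835 and 4.43 ± 0.545 CPM per kilobase (SD, n = 4). In shSmurf1 they were 359 ± 24.5, 119 ± 5.85, 8.02 ± 0.550 and 3.01 ± 0.494 CPM per kilobase (SD, n = 4). No library of one member reached the range of its neighbour in this order, the closest being ID2 at 6.42 and ID4 at 5.07 CPM per kilobase in shControl. The merged lengths were 1233, 1797, 2205 and 2344 bases for ID1, ID3, ID2 and ID4, and that of ID2 includes upstream exons of a longer transcript.

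ID1 and ID3 together made up nearly all ID transcripts by this measure. The share of ID1 was 65.7% to 66.5% of the summed level in the shControl libraries and 72.2% to 75.1% in the shSmurf1 libraries. The share of ID3 was 30.9% to 31.8% in shControl and 22.5% to 25.6% in shSmurf1. The summed level of all 4 genes overlapped between the groups, at 463 ± 15.8 CPM per kilobase in shControl and 489 ± 26.6 in shSmurf1 (SD, n = 4 each). The composition of the family thus differed, while its total had overlapping ranges of 444 to 478 and 454 to 512 CPM per kilobase. That overlap rested on shSmurf1 replicate 3 alone, at 454 CPM per kilobase. The totals of shSmurf1 replicates 1, 2 and 4, at 512, 483 and 507 CPM per kilobase, lay above every shControl library.

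Whether one member changed differently from another was tested on the log2 ratio of their CPM within each library, with 0.5 added to each. Library scaling enters such a ratio only through the added 0.5, which weighs most on ID4, the least abundant member. With 0.1 or 1 added instead, the difference in the ID1 to ID4 ratio was 0.78 or 0.73. Over the 6 pairs, 4 differed between the groups (exact two-sided permutation test over 70 splits, p = 0.0286 each, the smallest these splits can give, and 0.0429 after Benjamini-Hochberg adjustment). The log2 ratio of ID1 to ID3 was 0.54, 0.53, 0.56 and 0.50 in the shControl libraries and 1.19, 0.95, 1.01 and 1.04 in the shSmurf1 libraries. That is a rise of 0.51, the pair with the tightest shControl values. The ratio of ID1 to ID4 rose by 0.76, that of ID2 to ID4 by 0.66 and that of ID2 to ID3 by 0.42, each with no overlap between the groups. For ID1/ID3 and ID1/ID4 this outcome was fixed by the levels, since every shSmurf1 library was higher for ID1 and lower for ID3 and ID4. The test adds nothing to the levels for these pairs. The adjusted p of ID2/ID3 and ID2/ID4 rests in part on their tie with these pairs.

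The other 2 pairs overlapped. ID1 to ID2 differed by 0.10 (exact permutation p = 0.371, adjusted 0.371) and ID3 to ID4 by 0.24 (exact permutation p = 0.171, adjusted 0.206). With all 8 libraries the test thus called the ratio of each of ID1 and ID2 to each of ID3 and ID4. Only for the ratios with ID2 was that outcome not fixed by the levels. All 4 of these calls were lost when shControl replicate 2 or 3, or any 1 shSmurf1 library, was left out (6 of the 8 libraries, exact permutation, adjusted p from 0.0571 to 0.0857), while the differences kept their sign.

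**Figure D2:**
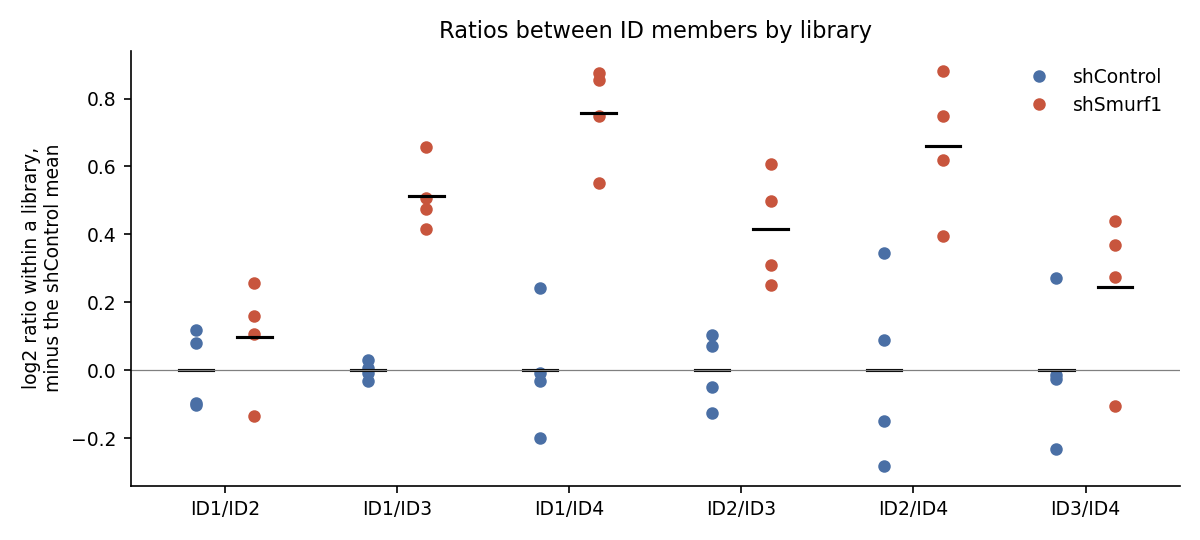
Log2 ratio of 2 ID members within each library (points), minus the shControl mean of that ratio, with group means as black bars. For ID1/ID3, ID1/ID4, ID2/ID3 and ID2/ID4 all shSmurf1 libraries lie above all shControl libraries, and for ID1/ID2 and ID3/ID4 the groups overlap.

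The directions held under each of 17 other settings of normalization, test, filter, block, GC correction and left-out library. The log2 fold change stayed between 0.16 and 0.27 for ID1, between −0.35 and −0.26 for ID3 and between −0.68 and −0.49 for ID4, and these 3 passed in all 17 (highest adjusted p 0.0220, 0.00280 and 0.0265). ID2 passed in none of the 17, at 0.07 to 0.17 with adjusted p from 0.302 to 0.720 over these settings. Its unadjusted p from edgeR with all libraries was 0.218. DESeq2 (adjusted p = 0.465) and limma-voom (0.403) did not call it either. Removing each library's trend with GC content gave the lowest value for ID1, 0.16 ± 0.038 (SE), and the largest fall for ID3, −0.35 ± 0.039 (SE). The longest transcripts of ID1, ID3, ID2 and ID4 have GC contents of 58.6%, 57.2%, 53.3% and 47.0%.

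**Figure D3:**
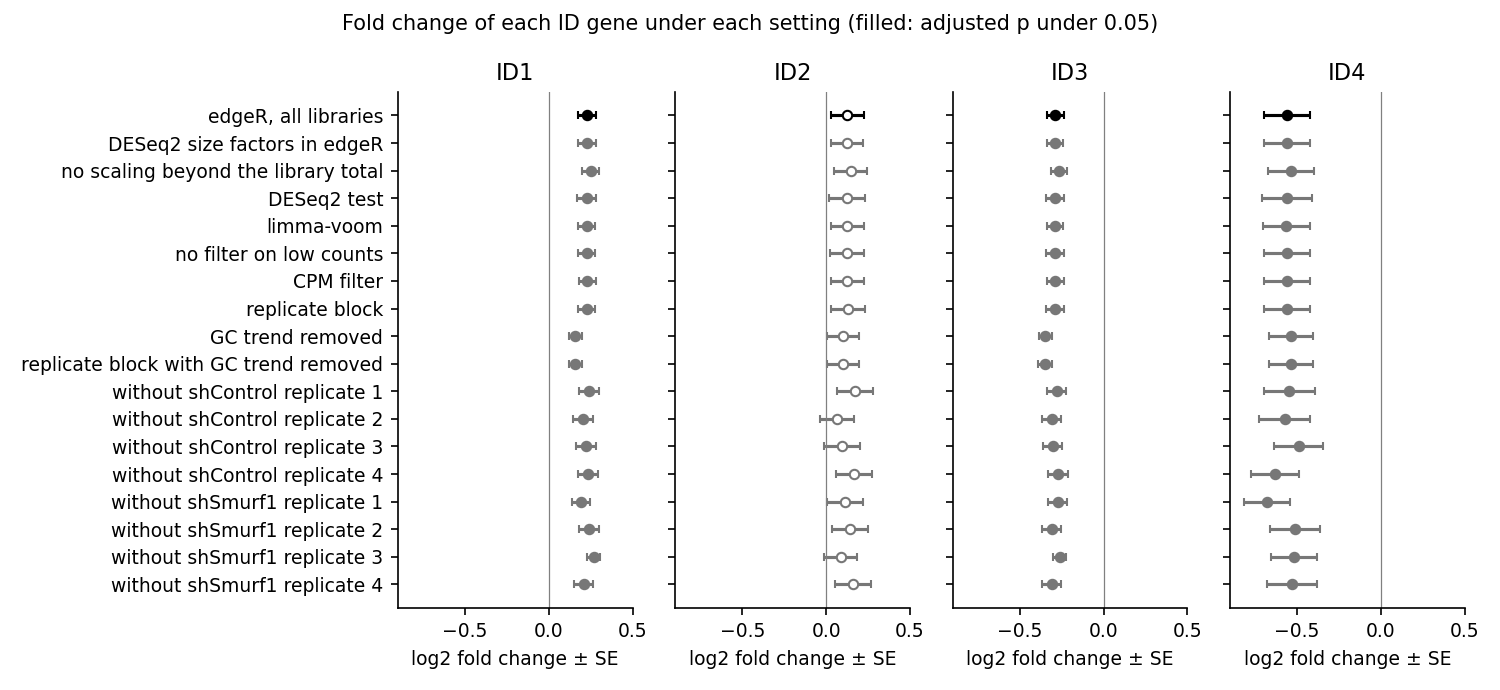
Log2 fold change with SE (horizontal axis) of each ID gene under the reported fit and 17 other settings, with filled points where the adjusted p was under 0.05. ID1 stays right of 0, ID3 and ID4 stay left of it, and ID2 is unfilled throughout.

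Around ID3 on chromosome 1, the called genes were all lower. Of the 20 tested genes nearest to it, 10 on each side, 7 fell, 0 rose and 13 were not called. Over all genes tested, 12.2% fell and 10.3% rose. The median log2 fold change of these neighbours was −0.16. ID3 lay −0.13 from that median. Its nearest tested neighbours were E2F2, a cell cycle transcription factor, at −0.13 ± 0.075 (SE, not called), and RPL11, a ribosomal protein gene, at −0.30 ± 0.062 (SE, edgeR adjusted p = 0.00133). The part of this stretch in the fall of ID3 was not tested. The neighbours of ID1 and ID4 were near 0, with medians of 0.02 and −0.02. Around ID2 the median was 0.09, and ID2 lay 0.04 above it. ID1 lay 0.21 above its median and ID4 −0.54 from its own, and among the 20 genes around each of these members 1 rose and 1 fell. The gene that fell near ID4 was RNF144B, directly beside it (−0.64 ± 0.13 SE, edgeR adjusted p = 0.00164). MBOAT1, on the other side of ID4, lay at 0.19 ± 0.16 (SE) and was not called. Whether ID4 and RNF144B fell together was not tested.

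**Figure D4:**
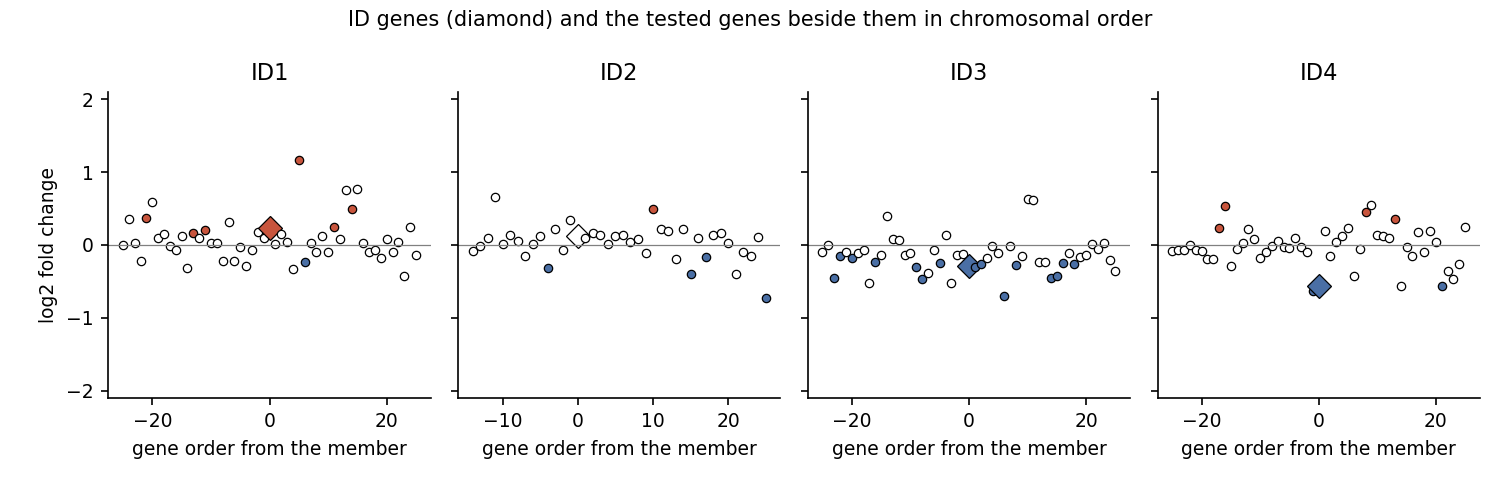
Log2 fold change (vertical axis) of each ID gene (diamond) and up to 25 tested genes on either side in chromosomal order (horizontal axis), red where higher, blue where lower and white where not called. Blue points gather around ID3, where 7 of the 20 nearest genes fell (12.2% of all genes tested did), and not around ID1, ID2 or ID4.

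The 3 E proteins, the partners of ID proteins, were all expressed and did not pass: TCF3 at 0.09 ± 0.065 (SE), TCF4 at −0.07 ± 0.073 and TCF12 at 0.06 ± 0.058 (edgeR adjusted p from 0.338 to 0.566). TCF3 was the most variable of them in shSmurf1, from 254 CPM in replicate 3 to 334 CPM in replicate 2, against 267 to 289 CPM in shControl. It passed as higher without shSmurf1 replicate 3 (0.17, edgeR adjusted p = 0.00161), and TCF12 passed with the GC trend removed (0.12, adjusted p = 0.0455). Per kilobase, the summed ID level was 8.32 ± 0.220 times the summed E protein level in shControl and 8.30 ± 0.574 times in shSmurf1 (SD, n = 4 each), with overlapping groups. The size of this ratio rests on merged exon lengths, which take in the exons of every transcript of a gene. In shControl replicate 1, TCF4 lay at 33.6 CPM but 1.21 CPM per kilobase, and ID2 at 17.8 CPM and 8.09 CPM per kilobase.

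Of 40 tissue-restricted bHLH factors that pair with E proteins, 8 were tested, 1 rose and 2 fell. Over all genes tested, 10.3% were higher and 12.2% lower. TWIST2, a mesenchymal bHLH repressor, was higher by 0.27, and MSC and ATOH8 were lower, at −0.37 and −0.25. TWIST2 held its call in 7 of 17 other settings, losing it with any single library left out except shSmurf1 replicate 3. MSC held its call in 9, losing it with any of shControl libraries 1, 3 and 4 and shSmurf1 libraries 1, 2 and 3 left out. ATOH8 held in 14, losing it with any of shControl libraries 2 and 4 and shSmurf1 libraries 1 left out. Among 8 tested genes of the HES, HEY and BHLHE families, HES6 (0.52 ± 0.11 SE) and BHLHE40 (0.21 ± 0.050) rose and BHLHE41 fell (−0.53 ± 0.099), in all 17 other settings as well. Of 7 tested partners outside the bHLH class, such as the retinoblastoma and ETS families, NKX2-5 alone changed (−0.35 ± 0.12 SE), a homeobox factor, and its call was lost with any of shControl libraries 1 to 4 and shSmurf1 libraries 2 and 3 left out.

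Genes listed as acting on the stability of ID proteins fell in 3 of 8 cases and rose in 0, against 12.2% lower and 10.3% higher over all genes tested. The 3 include SMURF1, the hairpin's target, whose fall was set by the design. Besides SMURF1 itself (−0.80 ± 0.055 SE), SMURF2, its closest relative (−0.17 ± 0.053), and USP1, a deubiquitinase that stabilises ID proteins (−0.18 ± 0.056), were lower. SMURF2 held its call in 10 and USP1 in 11 of 17 other settings. SMURF2 lost it with the GC trend removed and with any of shControl libraries 1, 2 and 3 and shSmurf1 libraries 1 and 2 left out, and USP1 with any of shControl libraries 1, 2 and 4 and shSmurf1 libraries 1, 2 and 4 left out. CDC20 (−0.15 ± 0.056), which targets mitotic substrates to the APC/C, passed in 5 of them, among them with any of shControl libraries 3 and shSmurf1 libraries 1 and 4 left out. The APC/C activator FZR1 (0.13 ± 0.062), WDR48, the USP1 cofactor (0.10 ± 0.064), COPS5 (−0.05 ± 0.074) and STUB1 (0.04 ± 0.073) did not pass with all libraries. FZR1 passed without shSmurf1 replicate 3 (0.20), and WDR48 with the GC trend removed (0.17).

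In the BMP route to the ID genes, 1 of 3 ligands tested and 5 of 10 secreted antagonists tested were lower. The shares over all genes tested were 12.2% lower and 10.3% higher. The ligand BMP4 fell (9.25, 11.9, 11.2 and 9.21 CPM in shControl and 5.96, 5.37, 5.33 and 4.17 CPM in shSmurf1). The groups did not overlap, and the log2 fold change was −1.0 ± 0.14 (SE, edgeR adjusted p = 3.57e-05). The ligands BMP6 and BMP8B were not called with all libraries, and 1 ligand was higher without shControl replicate 3, shSmurf1 replicate 1 or shSmurf1 replicate 3. Of the antagonists 1 rose and 4 were not called, and 3 were higher without shSmurf1 replicate 3. GREM1, gremlin, was the most abundant, at 803, 781, 796 and 799.5 CPM in shControl and 564, 509.7, 595 and 560.01 CPM in shSmurf1 (log2 fold change −0.51 ± 0.048 SE). NOG, noggin, lay at 51.6 to 61.6 CPM in shControl and 27.2 to 33.8 CPM in shSmurf1. FST, follistatin, fell from 15.7 to 7.83 CPM. CHRDL1 (−0.32) and CHRD, chordin, the antagonist that rose (0.38), were named after their values were seen.

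Receptors and co-receptors, those of TGF-β counted with those of BMP, fell in 6 of 12 tested cases and rose in 1. Over all genes tested 12.2% were lower and 10.3% higher. BMPR1B, a type I BMP receptor, fell from 2.54 ± 0.760 to 0.564 ± 0.239 CPM, while BMPR1A and BMPR2, the more abundant BMP receptors, lay at −0.01 ± 0.060 and −0.0015 ± 0.060 (SE) and were not called under any setting. BAMBI, a pseudoreceptor (−0.73 ± 0.14), RGMB, a BMP co-receptor (−0.47 ± 0.066), and TGFBR3, betaglycan (−0.49 ± 0.13), also fell. Without shControl replicate 3, TGFBR3 lay at −0.42 and was not called (edgeR adjusted p = 0.0515). The TGF-β receptors TGFBR1 (−0.23 ± 0.061) and TGFBR2 (−0.17 ± 0.057) were lower as well. These and ENG, endoglin, which rose (0.43 ± 0.050), were named after their values were seen. Of the 8 SMAD genes, SMAD1 (0.08 ± 0.12) and SMAD5 (−0.04 ± 0.053), the BMP effectors, did not pass, and SMAD9 was lower (−0.22 ± 0.072). SMAD3, the TGF-β effector (0.15 ± 0.048), and SMAD6, the BMP-branch inhibitor (0.26 ± 0.089), were higher. SMAD2 (0.10 ± 0.072), SMAD4 (0.03 ± 0.071) and SMAD7 (−0.07 ± 0.080) did not pass, though SMAD2 did with the GC trend removed (0.16). SMAD6 and SMAD9 each held their call in 9 of 17 other settings, and both lost it with any of shControl libraries 1, 2 and 4 and shSmurf1 libraries 1, 2 and 4 left out. SMAD3 held in 11, and lost it with any of shControl libraries 1, 3 and 4 and shSmurf1 libraries 1, 2 and 4 left out.

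Among 19 tested targets of BMP and SMAD1/5 outside the ID family, 2 rose and 6 fell, against 10.3% and 12.2% of all genes tested. Their median log2 fold change was −0.16, against 0.01 over all genes tested. With 1 library left out, 1 to 3 rose (3 without shSmurf1 replicate 3, 2 without shControl replicate 3 and 1 otherwise) and 3 to 7 fell, the lowest without shControl replicate 2 or 4. NOG, GREM1, BAMBI, SMAD6 and SMAD9 of the lists above are among them. UNC5B, a netrin receptor gene, was higher (0.82 ± 0.20 SE) and ATOH8 lower. Their directions were mixed, as those of the ID genes were. Of 17 tested transcription factors reported to act on ID genes, 1 rose and 5 fell (10.3% and 12.2% over all genes tested). Those that fell furthest were STAT5B (−0.49 ± 0.056), STAT3 (−0.42 ± 0.050), MYC (−0.32 ± 0.056) and SRF (−0.23 ± 0.064). Without shControl replicate 3, SRF lay at −0.21 and was not called (edgeR adjusted p = 0.0527), and 3 of the list were lower, while without shSmurf1 replicate 3, 6 were lower and 2 higher. With the GC trend removed 4 of the 17 were higher. Of 15 tested genes reported as controlled by ID or E proteins, 3 rose and 5 fell, beside the same shares over all genes tested. CDKN1C, a cell cycle inhibitor, rose (0.61 ± 0.15), and THBS1, thrombospondin (−0.60 ± 0.048), VEGFA (−0.50 ± 0.059) and CCNE1, cyclin E (−0.48 ± 0.070), fell. Other cell cycle inhibitors of the list did not rise with CDKN1C. CDKN1A (−0.32 ± 0.078, groups overlapping) and CDKN2C (−0.23 ± 0.055) fell, and CDKN1B, CDKN2A and CDKN2B were not called. The inhibitors other than CDKN1C were named after their values were seen.

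**Figure D5:**
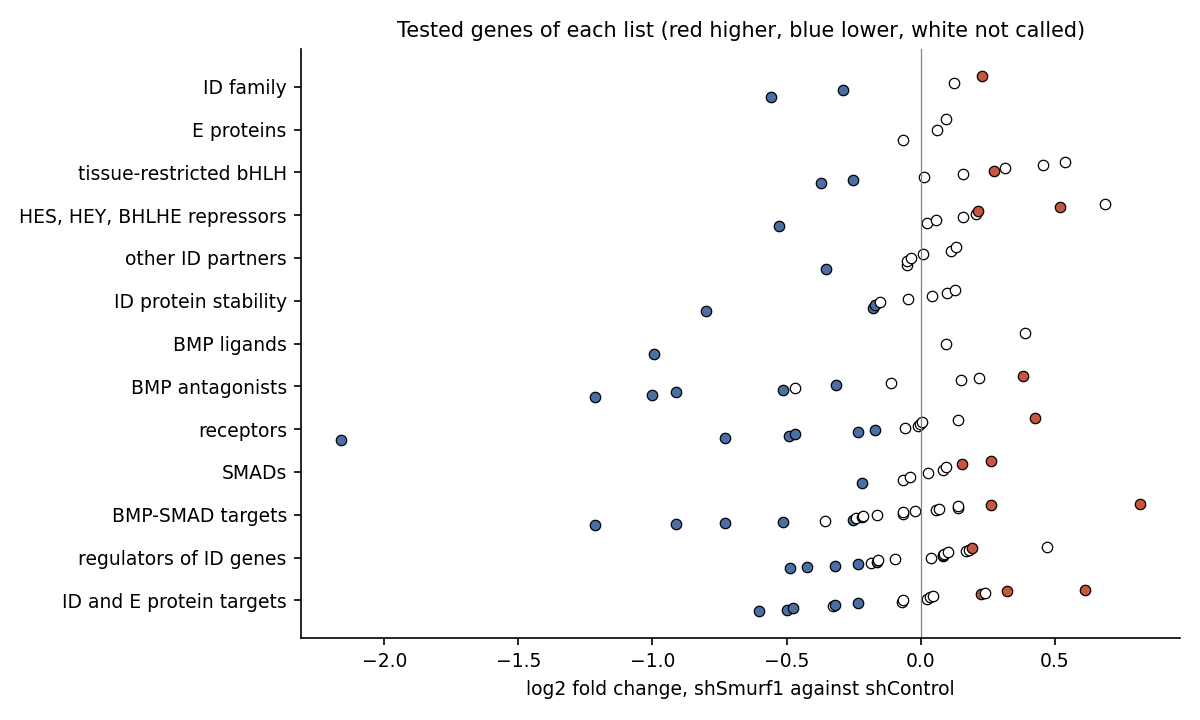
Log2 fold change (horizontal axis) of every tested gene in the ID family and 12 lists of partners, regulators and targets (rows), red where higher, blue where lower and white where not called. The E proteins lie near 0 and are not called, and 5 of the 10 BMP antagonists fell (12.2% of all genes tested did).

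The genes whose levels over the 8 libraries were most like those of each member differed between members. They were ranked by Pearson r of log2 CPM among the 11218 protein-coding genes averaging a log2 CPM of 2 or more, as a description, since the libraries share the group difference. ID1 was most like TIMM13, a mitochondrial import chaperone (r = 0.991), SLC29A2, a nucleoside transporter (0.990), and RAC3, a small GTPase (0.986). After subtracting group means the values were 0.973, 0.973 and 0.957. The genes most like ID3 included FKBP10, a collagen chaperone (0.984), and ACTA2, the α-smooth muscle actin (0.984), which fell by 0.97 on the log2 scale. After subtracting group means these stood at 0.884 and 0.930. ID4 was most like TGFBR3 (0.987), RAP2B (0.981) and SIPA1L1 (0.969), and ID2 most like PLA2G6, PIGH and TMEM33 (0.972, 0.964 and 0.962), of which 0 were called. Genes with r over 0.9 numbered 307 for ID1, 421 for ID3, 72 for ID4 and 17 for ID2, so each top 3 is a small part of a broad group for ID1 and ID3.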

How the data were processed

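Per the labels' protocols, polyadenylated RNA was selected and cDNA primed with random hexamers, and no strand-marking step is described. The authors deposited unnormalised counts of reads for each gene. The submitters' processing notes list featureCounts (version 1.5.0-p3), HISAT2 (version 2.0.5), fastp and CASAVA. Their genome build is not given in the sources used here. All 58735 identifiers were found in GENCODE release 29 (GRCh38). Genes were filtered with filterByExpr (minimum count 10), scaled by TMM and tested two-sided with edgeR (version 4.0.16, R version 4.3.3) with Benjamini-Hochberg adjustment over 15647 genes. CPM are counts over the TMM-scaled library size, and an SE is the log2 fold change over the root of F. DESeq2 version 1.42.0 and limma-voom (limma version 3.58.1) were alternatives, beside other scaling and filters, a replicate block, removal of each library's GC trend and leaving out each library. The labels call the replicates biological, without saying which steps were repeated. The p-values set the difference between the groups against the spread between these libraries.

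The members and lists were chosen with earlier results of these data known. The text names SMURF1, the ID genes, every tested E protein, SMAD and stability gene, up to 4 changed members of other lists with the largest change, 2 receptors not called, and the 3 genes most like each member, except that values of some genes under this rule are not reported here. On simulated counts for 15416 genes of this comparison, 48% of genes planted at 1.25-fold and 82% at 2-fold were recovered, and 11 other genes were called.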

Additional observations from a re-analysis of the deposited data

Results flagged for a closer look

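Among ID1 to ID4 and SMURF1 in the 2 groups, 10 sets of 4 libraries were checked for a library far from the rest. Only the shSmurf1 value of ID4 in replicate 1, 8.77 CPM, stood apart, with a gap to the next library of 0.854 of the whole range, above the critical value of Dixon's test. Chance alone sets apart about 1 in 20 such groups. Without that library the log2 fold change of ID4 was −0.68 ± 0.14 (SE, edgeR adjusted p = 0.00183), against −0.56 with it.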

How the results depend on the processing

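The calls and directions of ID1, ID2, ID3 and ID4 did not change under any of the 17 alternatives, with the replicate block among them (ID1 0.23, ID2 0.13, ID3 −0.29, ID4 −0.56 on the log2 scale). Same-numbered libraries did not deviate together (correlations of 0.032, −0.012, −0.067 and 0.029), so the numbers were not taken to pair them. With 1 library left out, genes called over the whole table ranged from 1216 to 2601 as higher and from 1547 to 2747 as lower, against 1611 and 1916, the highest without shSmurf1 replicate 3. In the 12 pathway lists together, 12 of 108 tested genes were higher and 30 lower, against 10.3% and 12.2% of all genes tested. Once the GC trend was removed 19 were higher. With 1 library left out 9 to 23 were higher and 22 to 33 lower. Within single lists, with the GC trend removed, 1 E protein, 1 other ID partner and 1 stability gene were higher against 0. With the replicate block, 0 against 1 tissue-restricted bHLH genes were higher and 1 against 2 lower, 1 against 2 SMADs and 1 against 2 BMP-SMAD targets were higher, and 0 against 1 SMAD was lower, in part also under limma-voom, no filter or no scaling, where 2 antagonists against 1 were higher and 0 partners against 1 were lower.

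Differences between members kept their direction with 1 library left out, at 0.47 to 0.55 for ID1/ID3, 0.69 to 0.84 for ID1/ID4, 0.35 to 0.47 for ID2/ID3 and 0.57 to 0.78 for ID2/ID4. Adjusted p then ran from 0.0429 (shControl replicate 1 or 4 left out) to 0.0857 by exact permutation. With 1 library left out there were 35 splits, so few p-values were possible, and adjustment over the 6 pairs tied them together. A lost call therefore need not mean a smaller difference. Without shControl replicate 3, ID1/ID3 lost its call at 0.52, against 0.51 with all libraries. As a replicate block (exact permutation of signs over 16 patterns, smallest p 0.125) the values were 0.51, 0.76, 0.42 and 0.66, none able to pass.

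Sign changes occurred in genes that were not called. With the GC trend removed, alone and then with the block, they were TCF4 (0.011 and 0.011), COPS5 (0.023 and 0.024), STUB1 (−0.074 and −0.074), BMPR2 (0.081 and 0.081), BMPR1A (0.051 and 0.050), SMAD5 (0.048 and 0.048) and, with the block, TCF3 (−0.00085). Without scaling BMPR2 lay at 0.020 and BMPR1A at 0.0098, and BMPR2 at 0.00027 under the CPM filter. With 1 library left out BMPR2 ran from −0.048 to 0.029, BMPR1A from −0.054 to 0.024, SMAD4 from −0.011 to 0.065 and SMAD7 from −0.11 to 0.0096. The cause was not tested. Depth limits ID4, at 94 to 191 counts per library, more than ID1.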
